A study of Mus musculus with 24 samples.

Results

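The 10 genes described here form the MHC class I antigen presentation pathway: H2-K1, H2-D1 and H2-T23 (heavy chains), B2m (the light chain), Tap1 and Tap2 (the peptide transporter), Tapbp (tapasin), Psmb8 and Psmb9 (immunoproteasome subunits) and Nlrc5 (a transactivator of class I genes). They are 10 of the 24594 genes in the counts table, found by symbol. The genes were selected on their level in each library and on the change of each deletion line against its own WT, with earlier results of these libraries known, so their values are given as a description without p-values. The low-count filter kept 9 of the 10. H2-T23 was left out by it, with at most 5 counts in any library.

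MHC class I molecules show peptides from inside the cell to cytotoxic T cells. Proteasomes cut proteins into peptides, the TAP transporter carries these into the endoplasmic reticulum, tapasin helps to load them, and a heavy chain paired with beta-2-microglobulin takes the peptide to the cell surface. Interferon raises most genes of the pathway, and pluripotent cells are known for low surface class I.

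RNA was sequenced from mouse embryonic stem cells (ESCs) of the 129S6/SvEvTac strain, grown without feeders in serum with LIF and given no treatment. Accessory subunits of ISWI chromatin remodelers had been deleted by CRISPR–Cas9, with 1 clone per genotype, so that a difference between lines cannot be told apart from a difference between clones. The lines Rsf1Δ (RSF complex), WstfΔ (Baz1b, WICH complex), Tip5Δ (Baz2a, NoRC complex), BptfΔ (NURF complex) and Acf1Δ (Baz1a, ACF and CHRAC complexes) had 2 libraries each, and the line labelled Cecr2Δ (CERF complex) had 3. The 11 libraries of the parental WT line fell into 5 RNA-seq batches, A to E, and each line was set against the WT of its own batch: Rsf1Δ and WstfΔ against the same WT libraries of batch A, Tip5Δ of B, BptfΔ of C, the libraries labelled Cecr2Δ of D and Acf1Δ of E.

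The 24 libraries held 13417755 to 36721585 counts in genes. All 8 pluripotency markers examined, Pou5f1 and Nanog among them, passed the filter, and their summed level was 3670 to 5441 normalised CPM (counts brought to a common library total scaled by TMM). Of 8 haematopoietic markers, 4 passed the filter. Ptprc and Lyz2 had at most 7 and 2 counts in a WT library, while Cd68, Csf1r and Itgam had mean levels of 26.4 to 47.5, 15.4 to 18.4 and 2.75 to 4.22 normalised CPM in the WT batches. The targeted mRNA had log2 fold changes of −2.26, −2.40, −1.97 and −1.72 in Rsf1Δ, WstfΔ, BptfΔ and Acf1Δ, with edgeR quasi-likelihood adjusted p from 7.05e-18 to 5.9e-14. In Tip5Δ the Baz2a level was 425 against 508 normalised CPM in WT (edgeR quasi-likelihood adjusted p = 0.0533). The line labelled Cecr2Δ had more Cecr2 mRNA than WT, by 0.37 on the log2 scale (edgeR quasi-likelihood adjusted p = 0.000154). The mRNA levels thus give no check of the Tip5Δ label or of the Cecr2Δ label. The study checked its lines by western blot and DNA sequencing, neither of which gene counts measure. It reported that the blots detected no protein of the deleted subunit in any deletion line. All directions given for the 3 libraries labelled Cecr2Δ rest on that label. The 4 libraries of batch C stood apart in the RNA they held: Rpph1, an RNA without a poly(A) tail, had 56332 to 83488 counts there and at most 96 in any other library.

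The promoters of 4 genes that carry the account below are shown first, as windows from 250 bases before to 50 bases after the transcript start (RefSeq, GRCm38.p6, 5′ to 3′ on the strand of the gene, so that the last 50 bases lie in the first exon). B2m lies outside the MHC at chr2:122147687-122153082, and its window is chr2:122147437-122147736 on the plus strand. H2-K1 and H2-D1 lie at chr17:33996012-34000619 and chr17:35263094-35267497, with windows chr17:34000298-34000597 on the minus strand (the first of 2 in the table) and chr17:35262844-35263143 on the plus strand. The transcript start used for H2-K1 lies inside the span given for the gene, and so does its whole window. Tapbp, Tap1, Tap2, Psmb8, Psmb9 and H2-T23 lie on chromosome 17 too, and Nlrc5 at chr8:94434335-94527272. The Tap1 window, chr17:34187306-34187605 on the plus strand, is shared with Psmb9. Capitals mark matches to AANNGAAA, the core that interferon regulatory factors bind, on either strand, and the Tap1 window holds none.
B2m: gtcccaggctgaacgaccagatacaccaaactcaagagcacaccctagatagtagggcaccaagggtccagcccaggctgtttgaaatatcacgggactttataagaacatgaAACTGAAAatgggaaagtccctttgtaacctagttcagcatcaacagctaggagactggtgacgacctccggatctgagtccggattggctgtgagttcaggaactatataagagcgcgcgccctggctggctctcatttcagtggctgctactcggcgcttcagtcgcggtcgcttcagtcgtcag
H2-K1: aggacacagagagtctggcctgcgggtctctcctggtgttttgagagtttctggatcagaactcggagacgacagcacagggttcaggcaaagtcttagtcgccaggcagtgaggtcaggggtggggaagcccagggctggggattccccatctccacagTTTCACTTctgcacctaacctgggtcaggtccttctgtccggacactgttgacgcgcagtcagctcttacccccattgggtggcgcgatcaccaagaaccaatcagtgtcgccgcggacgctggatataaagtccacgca
H2-D1: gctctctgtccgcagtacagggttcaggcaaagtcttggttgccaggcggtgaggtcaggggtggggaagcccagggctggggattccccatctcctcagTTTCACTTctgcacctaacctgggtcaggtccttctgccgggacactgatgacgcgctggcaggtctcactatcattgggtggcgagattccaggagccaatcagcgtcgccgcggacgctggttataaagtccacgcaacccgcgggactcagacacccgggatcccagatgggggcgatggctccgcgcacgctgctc
Tap1: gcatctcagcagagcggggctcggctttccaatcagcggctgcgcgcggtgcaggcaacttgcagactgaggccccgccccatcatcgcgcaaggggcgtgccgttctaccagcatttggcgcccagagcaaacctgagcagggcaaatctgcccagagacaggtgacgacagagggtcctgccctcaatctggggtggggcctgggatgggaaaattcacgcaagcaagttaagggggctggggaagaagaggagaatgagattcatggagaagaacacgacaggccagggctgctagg

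Promoter windows were found for 8 of the 10 genes. Tap2 and Nlrc5 had none. The letters AANNGAAA stood in 4 of the 8 windows (B2m, H2-K1, H2-D1 and H2-T23), against 23.9% of all 32851 windows in the RefSeq table. In H2-K1 and H2-D1 the match was the same run, TTTCACTT, read on the opposite strand, at positions −90 and −150 from the start. Without gaps, the H2-K1 and H2-D1 windows could be laid over each other for 240 bases, 176 of which (73.3%) were identical. CCAAT, the letters that NF-Y binds, stood in 7 of 8 windows (37.4% of all), TGACG, the letters that CREB and ATF factors bind, in 5 of 8 (20.8% of all), and TTCNNNGAA, the letters that STAT factors bind, in the Psmb8 window alone (8.3% of all). These motifs did not overlap one another in the windows printed. The starts of Psmb9 and Tap1 are 226 bases apart on opposite strands, and 275 of the 300 bases of their windows are the same DNA. A match in letters is a description and was not tested as a site.

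Before any deletion, the pathway was expressed unevenly in WT cells. Per kilobase of the deposited gene width, B2m was the highest at 24.5 ± 11.3 normalised CPM (SD, n = 11), above 84.2% of all genes tested. H2-D1 followed at 7.83 ± 1.21, Tapbp at 7.34 ± 0.62 and H2-K1 at 6.86 ± 0.74, with ranges that overlapped. Tap1 stood at 1.29 ± 0.55, Psmb9 at 0.55 ± 0.15 and Tap2 at 0.27 ± 0.12. Psmb8 at 0.12 ± 0.07, Nlrc5 at 0.064 ± 0.029 and H2-T23 at 0.036 ± 0.022 normalised CPM per kilobase were the lowest. Their mean counts in the WT libraries were 9.7, 13.4 and 2.5. Of these, H2-T23 was near the limit of detection, where 3 counts equal 0.084 to 0.22 normalised CPM before division by width. Between neighbours in this order, the WT ranges were apart for B2m and H2-D1 and for H2-K1 and Tap1, and overlapped for all others. Per kilobase of that width, the light chain was thus measured at a higher level than either classical heavy chain in every WT library. Before division by width, B2m was below both H2-K1 and H2-D1 in every WT library of batches C and D. WT replicate 1 of batch C had B2m at 11.1, H2-K1 at 18.3 and H2-D1 at 14.9 normalised CPM. The peptide transporter, the immunoproteasome and the transactivator were far below the tapasin gene per kilobase.

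**Figure D1:**
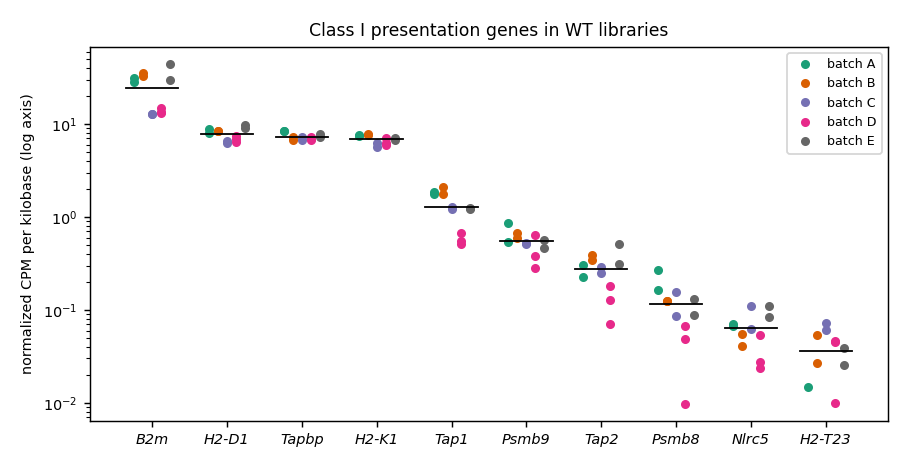
Level of each gene in the 11 WT libraries, in normalised CPM per kilobase of the deposited gene width on a log axis. Points are coloured by batch, with a bar at the mean. B2m is the highest at 24.5 and H2-T23 the lowest at 0.036. The WT library of H2-T23 at 0 counts cannot be drawn on this axis.

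The WT batches differed among themselves, which sets the scale for every comparison below. The mean B2m level of the highest WT batch (E) was 2.88 times that of the lowest (C), and for Tap1 and Tap2 the corresponding factors were 3.33 and 3.29, with batch D lowest for both. For H2-K1, H2-D1 and Tapbp the factors were 1.30, 1.48 and 1.21. All changes are therefore given against WT of the same batch.

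Of the 10 genes, B2m alone was lower in every library of all 6 lines than in every WT library of the same batch, as were 1.47% of all genes tested (in a single line 18.4% to 40.8% were wholly below WT). Rsf1Δ and WstfΔ share their WT libraries. B2m encodes the light chain that every class I heavy chain needs to reach the surface. In Rsf1Δ the B2m level was 12.5 and 11.2 normalised CPM, against 26.7 and 24.5 in WT, and in WstfΔ it was 15.2 and 15.1 against the same WT libraries. In Tip5Δ it was 18.7 and 21.5, against 30.2 and 28.4. In each of these 3 lines both libraries lay below both WT libraries. In BptfΔ B2m was at 6.59 and 5.66 normalised CPM, against 11.1 and 11.1 in WT. In the libraries labelled Cecr2Δ it was at 9.21, 7.44 and 8.68, against 11.7, 12.8 and 11.4. In Acf1Δ it was at 15.2 and 16.4, against 38.3 and 25.6, the widest gap between replicates of any group. The fitted B2m levels were 2.15-fold lower in Rsf1Δ (log2 fold change −1.11, SE 0.14), 2.02-fold lower in Acf1Δ (−1.02, SE 0.13), 1.81-fold in BptfΔ (−0.86, SE 0.18), 1.69-fold in WstfΔ (−0.76, SE 0.14), 1.46-fold in Tip5Δ (−0.54, SE 0.13) and 1.42-fold in the libraries labelled Cecr2Δ (−0.50, SE 0.12). Neighbours in this order were closer than the sum of their standard errors. In bulk RNA, fewer cells of a kind and less RNA per cell cannot be told apart.

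**Figure D2:**
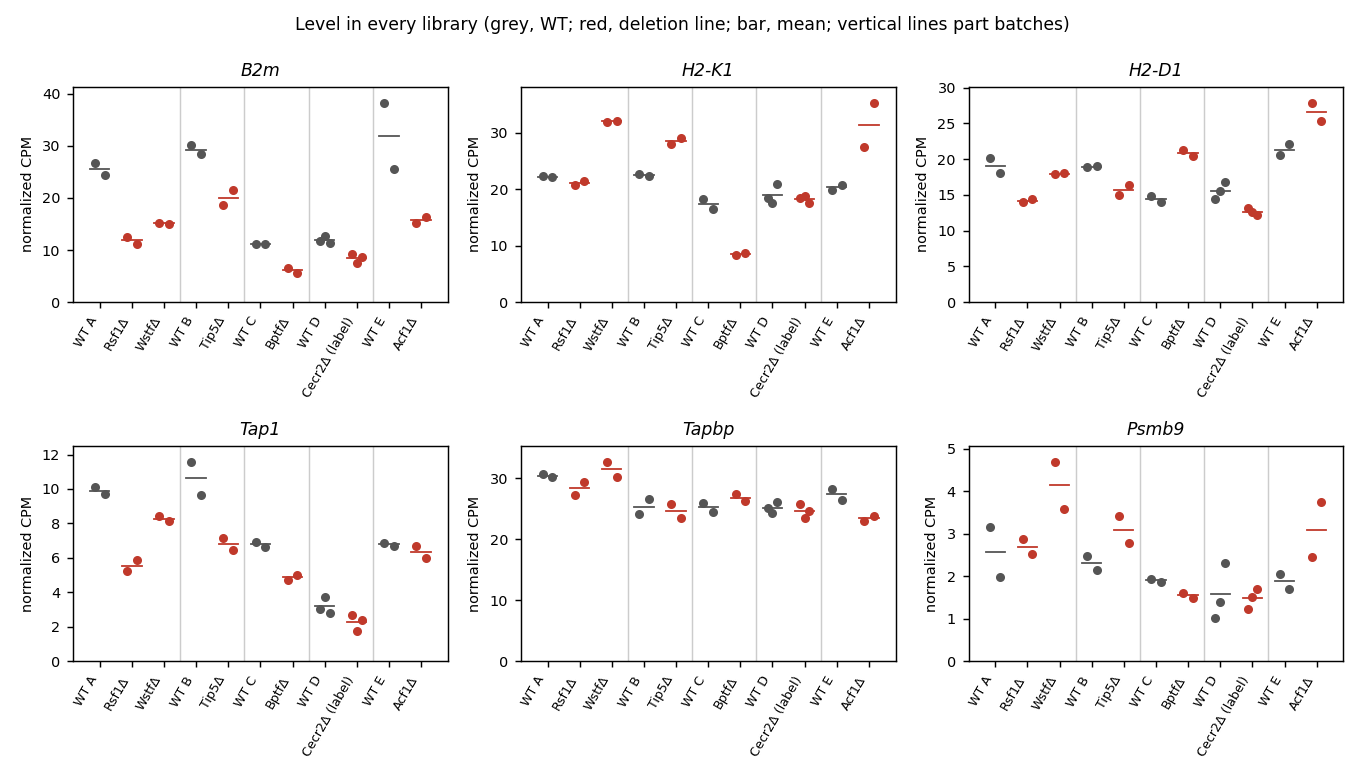
Normalised CPM of B2m, H2-K1, H2-D1, Tap1, Tapbp and Psmb9 in each library (points) with the group mean (bar), WT in grey and deletion lines in red, parted by batch. B2m is below its WT in every line, H2-K1 is at 8.38 and 8.72 in BptfΔ while H2-D1 there is at 21.3 and 20.4, and Tapbp lies between 23 and 32.7 in all libraries.

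Markers of other cell types moved in the same libraries. Differentially expressed genes (DEGs) differed from WT by more than 1 on the log2 scale in either direction, at an adjusted p below 0.01. Of 8 primitive endoderm markers (Gata6, Sox17 and others), 7, 6, 8, 8 and 7 were lower DEGs in Rsf1Δ, WstfΔ, Tip5Δ, BptfΔ and the libraries labelled Cecr2Δ. Their summed level was 523 to 574 normalised CPM in Rsf1Δ and 502 to 527 in WstfΔ against 1522 to 1913 in WT, 338 to 349 in Tip5Δ against 1755 to 1873, 164 to 171 in BptfΔ against 1084 to 1182 and 111 to 117 in the libraries labelled Cecr2Δ against 467 to 511. In Acf1Δ none of the 8 was a DEG by edgeR or DESeq2, 6 were higher and 1 lower at an unadjusted p under 0.05 in edgeR, and their summed level was 1063 to 1418 normalised CPM against 953 to 1140 in WT, while B2m was lower there by about as much as in Rsf1Δ. The summed trophectoderm markers were lower than in WT in all 6 lines, as B2m was. They were at 106 to 106 normalised CPM in Rsf1Δ and 79.4 to 83.2 in WstfΔ against 439 to 445 in WT, 215 to 230 in Tip5Δ against 348 to 359, 64.2 to 71.2 in BptfΔ against 174 to 176, 80.9 to 85.4 in the libraries labelled Cecr2Δ against 118 to 140, and 165 to 165 in Acf1Δ against 252 to 261. Of the 7 trophectoderm markers tested, 4, 4, 3, 4 and 2 were lower DEGs in Rsf1Δ, WstfΔ, BptfΔ, the libraries labelled Cecr2Δ and Acf1Δ, and 1 (Eomes) was a higher DEG in WstfΔ. The lower ones were Krt8, Krt18, Hand1 and Gata3 in Rsf1Δ, WstfΔ and the libraries labelled Cecr2Δ, Cdx2, Tfap2c and Krt18 in BptfΔ, and Tfap2c and Gata3 in Acf1Δ. Tip5Δ had none by edgeR or DESeq2, and 4 were lower at an unadjusted p under 0.05 in edgeR. The summed fibroblast markers overlapped WT in WstfΔ, at 21.0 to 25.4 normalised CPM against 21.2 to 22.5, and were lower in the other 5 lines, as in BptfΔ (5.95 to 6.53 against 10.6 to 10.6) and Acf1Δ (15.2 to 15.6 against 27.1 to 27.2). Of the 5 fibroblast markers tested, 3 were lower DEGs in each of Rsf1Δ, WstfΔ, Tip5Δ, BptfΔ and Acf1Δ. DESeq2 did not make the Col3a1 call in BptfΔ. In WstfΔ the lower ones were Col1a1, Col1a2 and Col3a1, and Thy1 was a higher DEG, at 15.2 normalised CPM against 7.44 in WT. The libraries labelled Cecr2Δ had none by edgeR or DESeq2, and 3 lower at an unadjusted p under 0.05 in edgeR. The summed haematopoietic markers were lower in WstfΔ, at 42.4 to 44.1 normalised CPM against 53.8 to 54.4 in WT, and overlapped the WT of the same batch in the other 5 lines. In WstfΔ Cd68 fell by 0.33 and Itgam fell by 0.995 (log2 scale, SE 0.10 and 0.26, edgeR quasi-likelihood adjusted p = 0.00847 and 0.00236), while Cd68 rose by 0.37 in Tip5Δ and Csf1r rose by 0.38 in Acf1Δ (log2 scale, SE 0.09 and 0.10, edgeR quasi-likelihood adjusted p = 0.00706 and 0.00437), and none of these was a DEG. The summed pluripotency markers were higher than in WT in 5 lines, at 4826 to 4869 normalised CPM in Rsf1Δ and 5005 to 5083 in WstfΔ against 3682 to 3812, 4771 to 4794 in BptfΔ against 3670 to 3778, 5222 to 5441 in the libraries labelled Cecr2Δ against 4471 to 4869 and 5250 to 5255 in Acf1Δ against 4447 to 4581. In Tip5Δ they were at 4308 to 4505 against 4303 to 4320, which overlap. Klf4 in WstfΔ and Klf4 and Esrrb in BptfΔ were higher DEGs. The part of these cell types in the B2m level was not tested.

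The pair of classical heavy chains did not move together. H2-K1 was lower in BptfΔ, at 8.38 and 8.72 normalised CPM against 18.3 and 16.5 in WT (2.03-fold, log2 fold change −1.02, SE 0.12). H2-D1 was higher in those very libraries, at 21.3 and 20.4 against 14.9 and 14.0 (1.44-fold, log2 fold change 0.53, SE 0.10). Both genes were thus clear of their WT in BptfΔ, in opposite directions. In WstfΔ H2-K1 was at 31.8 and 32.1 against 22.4 and 22 in WT (1.44-fold higher, SE 0.10 on the log2 scale), and H2-D1 was at 17.9 and 18.1 against 20.2 and 18.0, which overlap. Tip5Δ had H2-K1 at 28.0 and 29.1 against 22.7 and 22.3 (1.27-fold higher) and H2-D1 at 15 and 16.4 against 18.9 and 19.0 (1.21-fold lower). Tip5Δ thus had the genes on opposite sides of WT too, with H2-K1 the higher of them. Acf1Δ was the line in which both were higher than in WT: H2-K1 was at 27.5 and 35.3 against 19.8 and 20.7, and H2-D1 at 27.9 and 25.3 against 20.5 and 22.1. In Rsf1Δ H2-D1 was at 14.0 and 14.4 against 20.2 and 18.0 (1.34-fold lower), and H2-K1 at 20.7 and 21.5 against 22.4 and 22, a change of −0.08 with an SE of 0.10. The libraries labelled Cecr2Δ had H2-D1 at 13.2, 12.6 and 12.2 against 14.5, 15.5 and 16.8 (1.23-fold lower), and H2-K1 at 18.5, 18.7 and 17.5 against 18.5, 17.6 and 20.9, which overlap.

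The ratio of H2-K1 to H2-D1 within a library needs no scaling between libraries. In the 11 WT libraries the log2 ratio of counts per kilobase was −0.47 to −0.03. It was −1.73 and −1.61 in BptfΔ, below all WT libraries, and 0.45 and 0.45 in WstfΔ, 0.44 and 0.52 in Tip5Δ, 0.18 and 0.19 in Rsf1Δ and 0.10 to 0.20 in the libraries labelled Cecr2Δ, above all WT libraries. The 2 Acf1Δ libraries were apart from each other, at −0.40 and 0.10, and both lay above the WT of batch E, at −0.47 and −0.43. The BptfΔ line was thus the line with the ratio below its WT, and the other 5 had it above theirs.

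**Figure D3:**
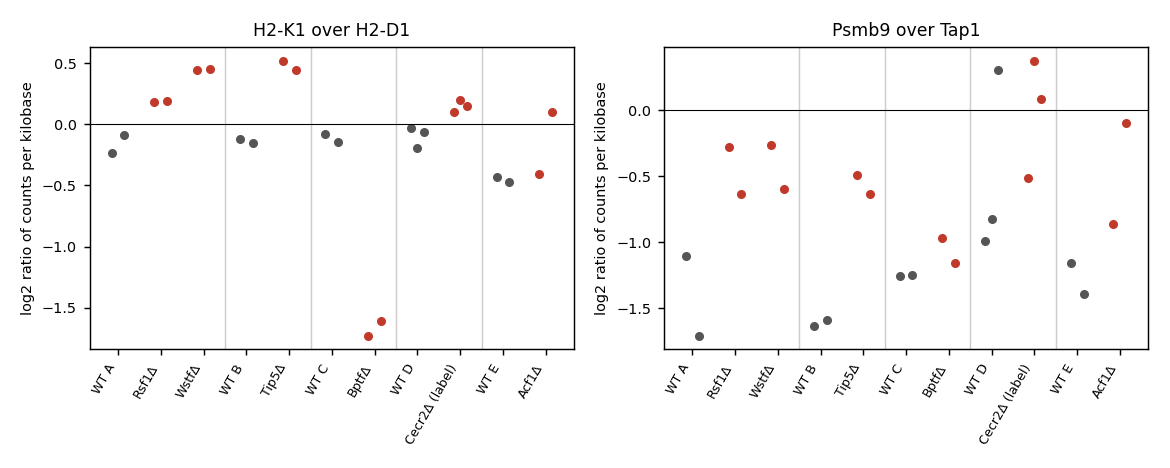
Log2 ratio of counts per kilobase in each library for H2-K1 over H2-D1 (left) and Psmb9 over Tap1 (right), WT in grey and deletion lines in red, parted by batch. H2-K1 over H2-D1 is at −1.73 and −1.61 in BptfΔ and at or above −0.40 in every other deletion library.

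Reads from heavy chain genes can be hard to place. Of the distinct 50-base words in H2-K1 coding transcripts (GENCODE vM21), 6.87% occur in a transcript of another gene, most often H2-D1. For H2-D1 the share was 13.9%, most often with H2-Q1, and for H2-T23 28.8%. B2m, Psmb8, Psmb9 and Nlrc5 had 0%, and Tap1, Tap2 and Tapbp had 0.834%, 0.708% and 3.5%. How the authors counted reads that fit several genes is not given in the sources used here, so the H2-K1 and H2-D1 values carry that uncertainty.

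In a single line, 18.4% to 40.8% of all genes tested lay wholly below WT, and the share over 5 lines was not counted. Tap1, the first chain of the peptide transporter, was lower than WT in every library of 5 lines. Its level was 5.24 and 5.86 normalised CPM in Rsf1Δ against 10.1 and 9.69 in WT (1.78-fold lower, log2 fold change −0.83, SE 0.14), and 8.45 and 8.12 in WstfΔ against the same WT libraries (−0.26, SE 0.15). In Tip5Δ it was 7.18 and 6.49 against 11.6 and 9.67 (1.55-fold lower, −0.64, SE 0.14). BptfΔ had 4.73 and 5.03 against 6.93 and 6.65 (−0.48, SE 0.17), and the libraries labelled Cecr2Δ 2.67, 1.75 and 2.40 against 3.05, 3.71 and 2.81 (−0.50, SE 0.14). In Acf1Δ the Tap1 levels of 6.72 and 6 overlapped the 6.89 and 6.70 of WT (−0.10, SE 0.14). Its partner chain Tap2 was low, at 8 to 53 counts in a library, and its log2 fold changes ran from −0.69 in Rsf1Δ to 0.56 in WstfΔ with standard errors of 0.31 to 0.40. Only Rsf1Δ (0.773 and 0.489 normalised CPM against 1.16 and 0.861) and Acf1Δ (1.01 and 1.02 against 1.95 and 1.18) had both Tap2 libraries below both of WT.

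Psmb9, which encodes an immunoproteasome subunit and starts beside Tap1 on the other strand, did not follow it in all lines. In WstfΔ Psmb9 was at 4.70 and 3.59 normalised CPM against 3.15 and 1.98 in WT, in Tip5Δ at 3.41 and 2.79 against 2.49 and 2.15, and in Acf1Δ at 2.46 and 3.74 against 2.06 and 1.70. These 3 lines had a Psmb9 log2 fold change of 0.68 (SE 0.28), 0.42 (SE 0.27) and 0.72 (SE 0.28), all above 0 where Tap1 was below it. Rsf1Δ (2.88 and 2.52) and the libraries labelled Cecr2Δ (1.24, 1.52 and 1.70) overlapped WT, and BptfΔ (1.62 and 1.5 against 1.94 and 1.87) had a log2 fold change of −0.29 with an SE of 0.36. The log2 ratio of Psmb9 to Tap1 per kilobase was −1.63 and −1.59 in WT of batch B and −0.64 and −0.49 in Tip5Δ, and −1.71 and −1.10 in WT of batch A against −0.63 and −0.28 in Rsf1Δ. In BptfΔ both genes were below WT, and the ratio was −0.97 and −1.16 against −1.25 and −1.25 in WT of batch C. In WT of batch D it ran from −0.99 to 0.30, so the ratio was less steady there.

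Tapbp, the tapasin gene, was the steadiest of the well-expressed genes, at 23 to 32.7 normalised CPM in all 24 libraries. Its log2 fold changes ran from −0.22 in Acf1Δ (23 and 23.9 against 28.3 and 26.5) to 0.08 in BptfΔ (27.4 and 26.3 against 26.0 and 24.6), with standard errors of 0.06 to 0.08. Psmb8, the other immunoproteasome subunit, had 0 to 23 counts in a library and no fold is given for it. It had 3 and 0 counts in BptfΔ against 10 and 5 in WT, 4 and 1 in WstfΔ and 9 and 8 in Rsf1Δ against 23 and 13, 3 and 8 in Tip5Δ against 11 and 11, 4 and 3 in Acf1Δ against 8 and 12, and 10, 10 and 10 in the libraries labelled Cecr2Δ against 8, 5 and 1. Psmb8 was thus below WT in 5 lines and above it in the libraries labelled Cecr2Δ, at counts too low for a fold. In each of these 5 lines 32.4% to 40.8% of all genes tested were wholly below WT. In the libraries labelled Cecr2Δ 19.9% were wholly above it. Nlrc5 had 3 to 25 counts in a library. It stood at 0.18 and 0.35 normalised CPM in BptfΔ against 0.52 and 0.93 in WT (−1.43, SE 0.55). Its log2 fold changes in the other lines were −0.67 to 0.51, with standard errors of 0.40 to 0.48. H2-T23 had 0 to 5 counts in a library, too few to show a difference from WT at this depth.

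**Figure D4:**
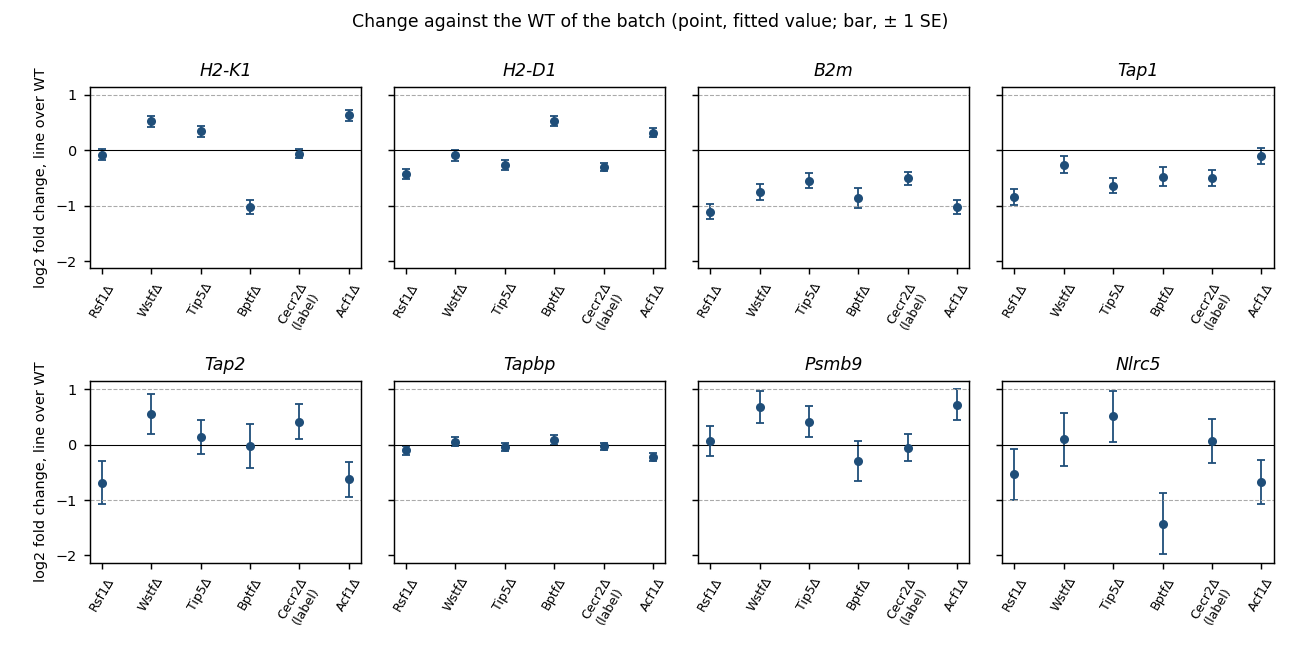
Fitted log2 fold change of 8 genes in each line against WT of its batch (points, with bars of 1 SE and dashed lines at −1 and 1). B2m lies below 0 in all 6 lines, between −1.11 and −0.50, and Tapbp lies within 0.22 of 0.

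The genes were chosen on these changes, so their counts of DEGs are a description beside the share of all genes tested, and nothing is read from them. In Rsf1Δ 0 of the 9 tested genes were higher and 1, B2m, was a lower DEG, where 0.65% and 5.26% of all 15682 genes were. At the adjusted p alone, with no fold minimum, the counts were 0 higher and 3 lower (H2-D1, B2m and Tap1), where 7.45% and 13.1% of all genes were. WstfΔ had no DEG among them (3.87% and 6.57% of all genes were higher and lower), and at the adjusted p alone H2-K1 was higher and B2m lower (16.4% and 18.3%). Tip5Δ had no DEG (0.0829% and 2.63%), and B2m and Tap1 were lower at the adjusted p alone (2.84% of all genes were higher and 6.23% lower). In BptfΔ H2-K1 was a lower DEG (5.25% of all genes higher, 8.59% lower), and at the adjusted p alone H2-D1 was higher and H2-K1 and B2m lower (21.4% and 20.2%). The libraries labelled Cecr2Δ had no DEG (0.784% and 2.33%), and H2-D1 and B2m were lower at the adjusted p alone (9.52% of all genes higher, 8.83% lower). In Acf1Δ B2m was a lower DEG (1.14% and 3.32%), and at the adjusted p alone H2-K1 and H2-D1 were higher and B2m lower (15.1% and 16.7%). Where edgeR made no call, in WstfΔ, Tip5Δ and the libraries labelled Cecr2Δ, DESeq2 made none either, and at an unadjusted p under 0.05 in edgeR 4, 4 and 3 of the 9 were counted. At that unadjusted p 39.4%, 52.3%, 28.2%, 57.6%, 38.9% and 49.9% of all genes tested were counted in Rsf1Δ, WstfΔ, Tip5Δ, BptfΔ, the libraries labelled Cecr2Δ and Acf1Δ, which also stand beside the counts at that p in the lists below. Of the 10 genes, 7 had 1 line with all libraries above WT and another with all below, as did 68.2% of all genes tested. The median log2 fold change of the 9 genes was −0.54, 0.05, −0.04, −0.48, −0.06 and −0.22 in Rsf1Δ, WstfΔ, Tip5Δ, BptfΔ, the libraries labelled Cecr2Δ and Acf1Δ, and that of all genes tested was within 0.03 of 0.

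The H2-K1 and Acf1Δ B2m calls sat on the fold limit. Without WT replicate 1 of batch C the H2-K1 log2 fold change in BptfΔ was −0.94, and without BptfΔ replicate 1 it was −0.99, neither a DEG. Without WT replicate 1 of batch E the B2m log2 fold change in Acf1Δ was −0.70, and without Acf1Δ replicate 1 it was −0.96, again no DEG. The Rsf1Δ B2m call was kept whichever library was left out (−1.19 to −1.03).

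Of 19 other class I heavy chain genes listed, 16 passed the filter, and 4 of them (25%) were lower DEGs in BptfΔ and none a higher one, beside 8.59% and 5.25% of all genes tested. The DEGs in either direction made up 6.25% of the list in Acf1Δ, beside 4.45% of all genes, and 12.5% in the libraries labelled Cecr2Δ, beside 3.11%. In BptfΔ H2-M3, which presents formylated peptides, was at 0.735 ± 0.023 normalised CPM against 2.47 ± 0.38 in WT (SD, n = 2 each, log2 fold change −1.74, SE 0.29, edgeR quasi-likelihood adjusted p = 1.43e-05). H2-Q4 fell by 1.66 in BptfΔ (log2 scale, SE 0.33, edgeR quasi-likelihood adjusted p = 0.000141) and H2-Q10 fell by 1.43 there (log2 scale, SE 0.45, edgeR quasi-likelihood adjusted p = 0.00948). H2-Q2 had at most 1 count in BptfΔ against 10 and 12 in WT (edgeR quasi-likelihood adjusted p = 0.000172). The same gene was a higher DEG in the libraries labelled Cecr2Δ, at 15 to 20 counts against 5 to 6 in WT (log2 fold change 1.70, SE 0.38, edgeR quasi-likelihood adjusted p = 0.0012), where H2-M2 was a lower one, at 1 to 4 counts against 3 to 22, which overlap (edgeR quasi-likelihood adjusted p = 0.00667). In Acf1Δ H2-Q6 was higher by 1.30 (log2 scale, SE 0.37, edgeR quasi-likelihood adjusted p = 0.00524). DESeq2 did not make the H2-Q6 call, and gave no adjusted p for H2-M2. The list medians were 0.11, −0.19, 0.16, −0.57, 0.34 and 0.03 on the log2 scale in Rsf1Δ, WstfΔ, Tip5Δ, BptfΔ, the libraries labelled Cecr2Δ and Acf1Δ. Rsf1Δ, WstfΔ and Tip5Δ had no DEG in this list by edgeR or DESeq2, and at an unadjusted p under 0.05 in edgeR 3, 8 and 5 genes. The H2-Q genes share sequence with H2-K1 and H2-D1, and the uncertainty in placing reads applies to them too.

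Of the genes of peptide supply and loading, Erap1, Tapbpl and Sec61a1 were DEGs. None of 10 other proteasome genes was a DEG in any line by edgeR or DESeq2, and 2 to 7 of them had an unadjusted p under 0.05 in edgeR. Their medians lay between −0.19 (WstfΔ) and 0.22 (Acf1Δ). Psmb10, the remaining immunoproteasome catalytic subunit, named here after its values were seen, fell by 0.79 in BptfΔ (log2 scale, SE 0.11, edgeR quasi-likelihood adjusted p = 5.42e-07) and rose by 0.86 in Acf1Δ (log2 scale, SE 0.10, edgeR quasi-likelihood adjusted p = 1.54e-07). It also fell by 0.41 in WstfΔ and fell by 0.39 in the libraries labelled Cecr2Δ (log2 scale, SE 0.11 and 0.07, edgeR quasi-likelihood adjusted p = 0.00364 and 0.000194). Among 10 other loading genes, Erap1, the aminopeptidase that trims peptides for class I, fell by 1.04 in WstfΔ (log2 scale, SE 0.17, edgeR quasi-likelihood adjusted p = 2.01e-05). In BptfΔ Tapbpl, a tapasin-related loading factor, fell by 1.15 (log2 scale, SE 0.34, edgeR quasi-likelihood adjusted p = 0.00546) and Sec61a1, a subunit of the translocon, fell by 1.07 (log2 scale, SE 0.06, edgeR quasi-likelihood adjusted p = 1.34e-13). Rsf1Δ, Tip5Δ, the libraries labelled Cecr2Δ and Acf1Δ had no DEG among the loading genes by either tool, and 7, 4, 5 and 7 genes at an unadjusted p under 0.05 in edgeR. The lower DEGs were 10% of the loading genes in WstfΔ and 20% in BptfΔ, beside 6.57% and 8.59% of all genes tested. The medians of the loading genes ran from −0.35 in BptfΔ to 0.04 in the libraries labelled Cecr2Δ.

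The regulators of class I genes and of the interferon receptors gave 2 DEGs over the 6 lines, of 25 tested. They were 4% of the list in Rsf1Δ and 4% in BptfΔ, below the 5.91% and 13.8% of all genes that were DEGs there. Ifngr2, a chain of the interferon-gamma receptor, fell by 1.05 in Rsf1Δ (log2 scale, SE 0.15, edgeR quasi-likelihood adjusted p = 4.32e-06). Jak2, a kinase of the same receptor, rose by 1.33 in BptfΔ, at 17.7 ± 0.68 against 7 ± 1.31 normalised CPM (SD, n = 2 each, log2 scale, SE 0.15, edgeR quasi-likelihood adjusted p = 3.11e-08). WstfΔ, Tip5Δ, the libraries labelled Cecr2Δ and Acf1Δ had none by edgeR or DESeq2, and 15, 10, 11 and 15 at an unadjusted p under 0.05 in edgeR. The median of the list was 0.25 in BptfΔ and between −0.08 and 0.08 in the other lines. Irf1, a transcription factor that binds class I promoters, named after its values were seen, rose by 0.48 in the libraries labelled Cecr2Δ (log2 scale, SE 0.06, edgeR quasi-likelihood adjusted p = 1.63e-06) and fell by 0.45 in Acf1Δ (log2 scale, SE 0.08, edgeR quasi-likelihood adjusted p = 0.000105), and fell by 0.30 in Rsf1Δ (log2 scale, SE 0.08, edgeR quasi-likelihood adjusted p = 0.00732).

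Interferon-induced genes outside the class I pathway gave DEGs in every line. Of 38 listed, 28 passed the filter. Rsf1Δ had 3 lower DEGs and no higher one, WstfΔ 8 lower and 3 higher, Tip5Δ 1 lower, BptfΔ 8 lower and 1 higher, and Acf1Δ 4 lower. In the libraries labelled Cecr2Δ the list had 6 higher DEGs and no lower one. The DEGs in either direction were 10.7%, 39.3%, 3.57%, 32.1%, 21.4% and 14.3% of the list in Rsf1Δ, WstfΔ, Tip5Δ, BptfΔ, the libraries labelled Cecr2Δ and Acf1Δ, beside 5.91%, 10.4%, 2.72%, 13.8%, 3.11% and 4.45% of all genes tested, so that the share in Tip5Δ was near that of all genes. DESeq2 did not make the calls of Gbp3 in Rsf1Δ and WstfΔ and of Irgm2 in WstfΔ, gave no adjusted p for Gbp7 in the libraries labelled Cecr2Δ, and added Oasl2 as a lower DEG in Tip5Δ. The list medians were −0.68, −0.39, −0.25, −0.41, 0.28 and −0.46 on the log2 scale in Rsf1Δ, WstfΔ, Tip5Δ, BptfΔ, the libraries labelled Cecr2Δ and Acf1Δ.

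Gbp2, a guanylate-binding protein, was a DEG in 5 of the 6 lines. It had 0 counts in both BptfΔ libraries against 79 and 95 in WT, at least 26.7-fold lower against a floor of 3 counts per library (edgeR quasi-likelihood adjusted p = 1.41e-10). In WstfΔ it had 1 and 3 counts against 178 and 225 (edgeR quasi-likelihood adjusted p = 4.13e-11). Gbp2 fell by 3.49 in Acf1Δ (log2 scale, SE 0.34, edgeR quasi-likelihood adjusted p = 1.45e-08) and fell by 2.14 in Rsf1Δ (log2 scale, SE 0.23, edgeR quasi-likelihood adjusted p = 5.79e-08). In the libraries labelled Cecr2Δ it rose by 1.22, at 1.93 ± 0.63 normalised CPM against 0.827 ± 0.297 (SD, n = 3 each, log2 scale, SE 0.24, edgeR quasi-likelihood adjusted p = 0.000364). In Tip5Δ it was at 3.07 ± 0.07 against 3.74 ± 0.84 (edgeR quasi-likelihood adjusted p = 0.469).

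Oas1a, a sensor of double-stranded RNA, fell by 1.91 in Rsf1Δ (log2 scale, SE 0.21, edgeR quasi-likelihood adjusted p = 6.57e-08) and fell by 1.43 in Tip5Δ (log2 scale, SE 0.21, edgeR quasi-likelihood adjusted p = 1.46e-05). It fell by 3.06 in WstfΔ and rose by 1.03 in the libraries labelled Cecr2Δ (log2 scale, SE 0.29 and 0.12, edgeR quasi-likelihood adjusted p = 2.5e-09 and 1.8e-07). Gbp3 was lower in Rsf1Δ, with 2 to 4 counts against 17 to 19 in WT (edgeR quasi-likelihood adjusted p = 0.00387), and had at most 1 count in WstfΔ (edgeR quasi-likelihood adjusted p = 0.00123). Ifitm1, an interferon-induced membrane protein, rose by 1.52 in the libraries labelled Cecr2Δ, at 99.8 ± 4.9 against 34.8 ± 6.9 normalised CPM (SD, n = 3 each, log2 scale, SE 0.09, edgeR quasi-likelihood adjusted p = 6.46e-13), and fell by 1.49 in Acf1Δ (log2 scale, SE 0.12, edgeR quasi-likelihood adjusted p = 3.46e-10). Gbp7 had 6 to 13 counts in the libraries labelled Cecr2Δ against at most 1 in WT (edgeR quasi-likelihood adjusted p = 0.0011). Oasl2 fell by 1.48 in Acf1Δ (log2 scale, SE 0.39, edgeR quasi-likelihood adjusted p = 0.00332). Cxcl10, a chemokine, had 0 counts in both BptfΔ libraries against 10 and 15, at least 3.82-fold lower (edgeR quasi-likelihood adjusted p = 0.000144). These genes were lower DEGs in further lines: Ifitm1, Oasl2 and Cxcl10 in WstfΔ, and Oasl2, Gbp3 and Gbp7 in BptfΔ.

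Xaf1, an interferon-induced gene of a factor that binds the apoptosis inhibitor XIAP, was opposite in sign to Gbp2 in WstfΔ and BptfΔ. It rose by 1.82 in WstfΔ (log2 scale, SE 0.12, edgeR quasi-likelihood adjusted p = 1.23e-12) and rose by 1.85 in BptfΔ, at 24.1 ± 0.77 against 6.68 ± 0.54 normalised CPM (SD, n = 2 each, log2 scale, SE 0.12, edgeR quasi-likelihood adjusted p = 1.38e-12), and fell by 1.16 in Acf1Δ (log2 scale, SE 0.12, edgeR quasi-likelihood adjusted p = 1.43e-08). Irgm2 and Igtp, a pair of immunity-related GTPases, rose by 1.26 and 1.20 in WstfΔ (log2 scale, SE 0.35 and 0.34, edgeR quasi-likelihood adjusted p = 0.00472 and 0.00461). In the libraries labelled Cecr2Δ, B2m was below its WT and the 6 DEGs of the interferon-induced list were higher. At an unadjusted p under 0.05 in edgeR, 15 genes of that list were higher and 4 lower there, beside 38.9% of all genes tested in either direction. A link between B2m and these genes was not tested.

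**Figure D5:**
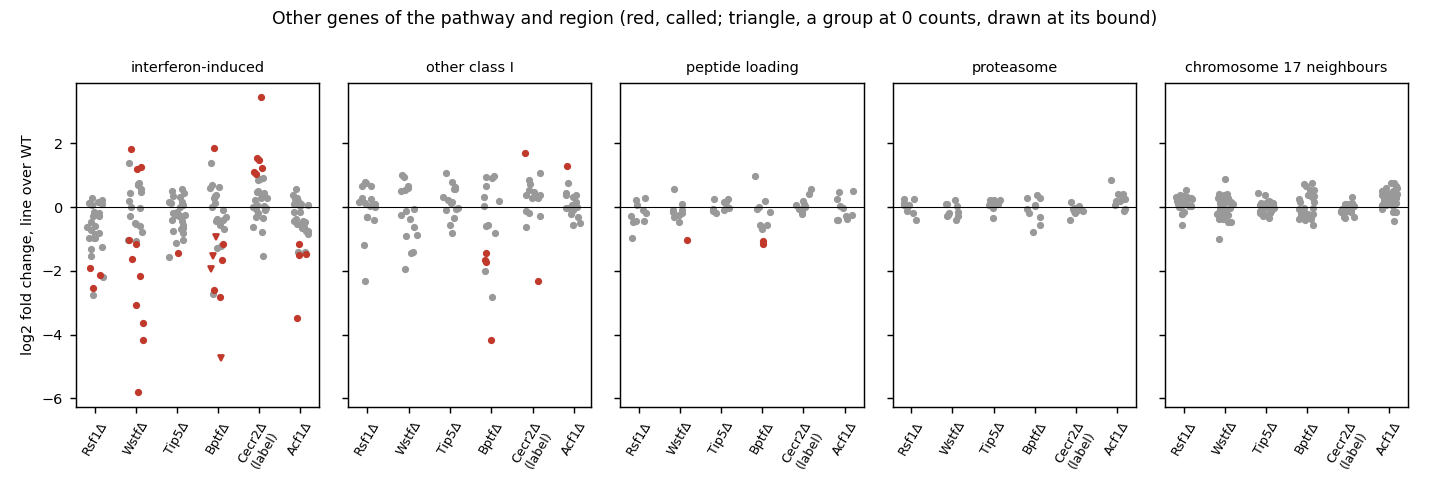
Log2 fold change against WT of each gene tested (points) in 5 lists, by line. Red points are DEGs, and triangles are the 4 genes at 0 counts in a group, drawn at the bound that 3 counts per library give. Interferon-induced genes spread the most, and the proteasome genes and the chromosome 17 neighbours hold no DEG.

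The genes around the class I genes on chromosome 17 gave no DEG. All 30 listed passed the filter, Brd2, Daxx and Flot1 among them, and edgeR and DESeq2 called none in any line. At the adjusted p alone 6 were higher and 9 lower in BptfΔ (21.4% and 20.2% of all genes), 14 higher and 1 lower (Mdc1) in Acf1Δ (15.1% and 16.7% of all genes), 6 higher and 0 lower in Rsf1Δ (7.45% and 13.1%), 6 higher and 7 lower in WstfΔ (16.4% and 18.3%), 1 higher (Flot1) and 2 lower (Daxx and Trim39) in the libraries labelled Cecr2Δ (9.52% and 8.83%), and 0 in Tip5Δ (2.84% and 6.23%). At an unadjusted p under 0.05 in edgeR there were 17, 18, 10, 22, 12 and 19 in Rsf1Δ, WstfΔ, Tip5Δ, BptfΔ, the libraries labelled Cecr2Δ and Acf1Δ. Their log2 fold changes in BptfΔ ran from −0.56 to 0.76, against −1.02 for H2-K1 and 0.53 for H2-D1. In Acf1Δ they ran from −0.43 to 0.75 with a median of 0.27, a range that held both H2-K1 (0.63) and H2-D1 (0.32). The changes of both genes in the other 4 lines also lay within the range of these neighbours. Of the 30 genes, 25 lie in the stretch from Tapbp to H2-T23, and Phf1, Kifc1, Daxx, Trim39 and Trim26 lie outside it. Of 8 class II genes, which present peptides in immune cells, 5 passed the filter. Cd74, the invariant chain, fell by 2.25 in BptfΔ (log2 scale, SE 0.41, edgeR quasi-likelihood adjusted p = 4.01e-05), H2-DMb1 had 0 counts there against 7 and 12 in WT, at least 2.89-fold lower (edgeR quasi-likelihood adjusted p = 0.00514), and H2-Ab1 had 9 and 10 counts in WstfΔ against 2 and 5 (edgeR quasi-likelihood adjusted p = 0.00618), a call that DESeq2 did not make. The DEGs were 40% of the list in BptfΔ and 20% in WstfΔ, beside 13.8% and 10.4% of all genes. The class II medians were 0.15, −0.09, −0.62, −2.25, 0.03 and 0.42 on the log2 scale in Rsf1Δ, WstfΔ, Tip5Δ, BptfΔ, the libraries labelled Cecr2Δ and Acf1Δ, or −1.53 in BptfΔ with H2-DMb1 at its bound. The other 4 lines had no class II DEG by either tool, and at most 1 gene at an unadjusted p under 0.05 in edgeR.

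Across the 24 libraries, the 9 tested genes shared no single profile. As deviations from the WT of the batch, Pearson's r was 0.72 between H2-K1 and Psmb9 and 0.70 between B2m and Tap1, but −0.32 between H2-K1 and H2-D1 and −0.55 between H2-D1 and Nlrc5. Of 12451 other genes with a mean log2 level of at least 1, those most like the mean profile of the 9 were Ehd4 (r = 0.90), Capg (0.90), Arrb1 (0.89), Car12 (0.88) and Mfhas1 (0.88). These values describe 24 libraries that share batches, lines and WT controls, and carry no test.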

How the data were processed

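RNA of 24 mouse ESC libraries was sequenced, polyadenylated per the labels, which the Rpph1 counts of batch C go against. The authors demultiplexed with bcl2fastq (2.17 in the submitters' processing notes, with a later version for NovaSeq libraries in the study's methods) and aligned with HISAT2 to mm10. They deposited a table of counts of reads per gene, with a width in bases for each gene and no normalisation. Sources differ on whether the kit kept strand, and the strand setting and the handling of reads that fit several genes are not given in the sources used here.

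From the deposited counts, edgeR 4.0.16 (R 4.3.3) was run with TMM scaling, the filterByExpr low-count filter by genotype (15682 genes kept) and the quasi-likelihood test with batch and genotype as terms over all 24 libraries, with Benjamini-Hochberg adjustment over all genes tested. Genes counted as DEGs where they differed by more than 1 on the log2 scale at an adjusted p below 0.01. The standard error is the log2 fold change over the square root of the F statistic. Normalised CPM is the CPM of the TMM-scaled library total, divided by the deposited width for levels per kilobase. Likeness used log2(normalised CPM + 0.5). Depth was 13417755 to 36721585 counts, so that 3 counts, the floor used for genes at 0, equal 0.0837 to 0.220 normalised CPM, a limit for counting error only. In 6 simulations, 1 on the comparison of each line over 15682 genes, 200 genes were changed by 2 on the log2 scale. Of these, 87.5% (Rsf1Δ) to 96.5% (the libraries labelled Cecr2Δ) were called with at most 1 unchanged gene. The simulated libraries held no batch differences and took their spread from the trend over all genes. They do not show how often smaller changes, such as those of B2m and H2-K1, would be called.

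The 10 genes and all other lists were chosen with earlier results of these data known. Genes named outside the 10 were, for each line and list, at most 2 DEGs with the largest increase and 2 with the largest decrease, the targeted genes, the 5 most alike and any gene behind a count of 5 or fewer. Psmb10, Irf1, the cell type markers, Rpph1, the closest single-gene profiles and some calls of named genes in further lines fall outside this rule and were named after their values were seen. The study's methods call the replicates independent and biological, without saying what was separate, and lines are single clones, so p-values measure the spread between libraries, which may be technical. No replicate pair agreed within sampling noise. Symbols were joined by Entrez ID for 24570 of 24594 genes. Alternatives were DESeq2 1.42.0, other scalings and filters, a fit to the own batch, no batch term, a replicate block, a test against a 2-fold change, no fold minimum and each library left out. Protein sequences were not analysed here.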

Additional observations from a re-analysis of the deposited data

Results flagged for a closer look

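Of the 10 genes, 7 (70%) had a line in which every library lay above its WT and another in which every library lay below it, beside 68.2% of all genes tested, and the difference between the lines was not tested. H2-K1 had a log2 fold change of 0.63 in Acf1Δ and of −1.02 in BptfΔ. H2-D1 had 0.53 in BptfΔ and −0.43 in Rsf1Δ. Tapbp had 0.085 in BptfΔ and −0.22 in Acf1Δ, both smaller than the spread of its WT libraries across batches. Psmb9 had 0.72 in Acf1Δ and −0.29 in BptfΔ, and Nlrc5 had 0.51 in Tip5Δ and −1.43 in BptfΔ, at 3 to 16 counts in these libraries and their WT. Psmb8 and H2-T23 were at low counts. The mean Psmb8 level differed from WT by 0.168 normalised CPM in the libraries labelled Cecr2Δ and by −0.558 in WstfΔ, and that of H2-T23 by 0.196 in WstfΔ and by −0.115 in Tip5Δ.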

How the results depend on the processing

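The counts of DEGs among the 10 genes and among the other listed genes, cell type markers left out (4, 13, 1, 18, 8 and 5 in Rsf1Δ, WstfΔ, Tip5Δ, BptfΔ, the libraries labelled Cecr2Δ and Acf1Δ) moved most with the batch term and the fold limit, and the cause was not tested. Without a batch term the genes called lower were 0 in Rsf1Δ, 2 in BptfΔ (H2-K1 and B2m), 1 in the libraries labelled Cecr2Δ (Tap1) and 0 in Acf1Δ, 1 was called higher in WstfΔ (Psmb9), and the other listed genes called were 1, 5, 0, 5 and 1 in Rsf1Δ, WstfΔ, Tip5Δ, the libraries labelled Cecr2Δ and Acf1Δ. In that fit Tap1 in WstfΔ was at 0.23 and H2-K1 in Rsf1Δ at 0.06 on the log2 scale, and B2m stayed below 0 in all 6 lines (−0.07 in Tip5Δ, −0.42 in Acf1Δ). Tested against a 2-fold change, 0 of the 10 were lower in Rsf1Δ, BptfΔ and Acf1Δ, and the other listed genes called were 2, 4, 0, 6, 1 and 2. With no fold minimum, 3, 1, 2, 2 and 2 were lower in Rsf1Δ, WstfΔ, Tip5Δ, BptfΔ and the libraries labelled Cecr2Δ, 1, 1 and 2 were higher in WstfΔ, BptfΔ and Acf1Δ, and the other listed genes called were 28, 50, 8, 62, 27 and 46. B2m in Acf1Δ was no DEG (0) without the low-count filter, with its own batch alone, or with the replicate block. Tip5Δ had 2 other listed genes with DESeq2, 2 without the filter and 3 with its own batch alone.

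The replicate block gave 3 other listed genes in Acf1Δ and changed no other count of the 10 genes. Replicate numbers did not pair the samples: same-numbered line and WT libraries correlated at −0.157 to 0.049 over 13 pairs. With each library left out, the genes called lower were 1 to 1 in Rsf1Δ, 0 to 1 in BptfΔ and 0 to 1 in Acf1Δ, and 0 to 0 elsewhere. The other listed genes called were 5 to 6, 9 to 12, 1 to 1, 13 to 17, 5 to 10 and 3 to 7. They were 5 without Cecr2Δ-labelled replicate 2 and 3 without WT replicate 1 of batch E. Of the genes most like the mean profile, 1 of 5 was shared with the deletion libraries alone, and 1 of 5 with Spearman's rho. Over all genes, the lower DEGs were 102, 297, 144, 1677, 531 and 139 without a batch term and 255, 450, 158, 672, 136 and 95 against a 2-fold change, where 825, 1031, 413, 1347, 365 and 520 were called. The higher DEGs were 32, 203, 15, 691, 85 and 14, and 13, 165, 0, 327, 10 and 20, where 102, 607, 13, 824, 123 and 178 were called. In Tip5Δ the higher DEGs were 23 without the filter and 26 with its own batch alone. Depth limits Psmb8, Nlrc5, Tap2 and H2-T23, at 53 counts or fewer in every library.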

Other observations

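Single genes had their own closest profiles among genes with a mean log2 level of at least 1, as deviations from the WT of the batch over the 24 libraries, given without a test since the libraries share batches, lines and WT controls. B2m was most like Gpx3 (r = 0.92) and Klhl13 (r = 0.92), H2-K1 most like Tgif2 (r = 0.92), H2-D1 most like Snx9 (r = 0.94) and Tap1 most like Ubash3b (r = 0.91). None of these genes was chosen by the rule for named genes, and all were named after their values were seen. Over the 10 genes together, the summed level was below WT in every library of 4 lines. It was 84.4 to 86.1 normalised CPM in Rsf1Δ against 108.4 to 116.0 in WT, 99.9 to 102.4 in Tip5Δ against 110.3 to 112.5, 69.1 to 71.5 in BptfΔ against 77.0 to 81.5, and 66.8 to 71.9 in the libraries labelled Cecr2Δ against 74.7 to 81.1. It overlapped WT in WstfΔ, at 110.0 to 113.1 against 108.4 to 116.0, and in Acf1Δ, at 104.7 to 112.2 against 106.1 to 118.9. The sum rests on the genes with the highest levels, and these moved in different directions, as H2-K1 and H2-D1 did in BptfΔ.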
